A study of Mus musculus with 6 samples.

Results

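The genes described here are the CC chemokine ligands of mast cells taken from mouse lymph nodes: Ccl1, Ccl2, Ccl3, Ccl4, Ccl5, Ccl6, Ccl7, Ccl9, Ccl17 and Ccl22. They were taken by gene symbol from a table of estimated mRNA read counts, which holds all 10 among 17890 genes. The table has 3 libraries of mast cells from uninvolved nodes (uLN) and 3 of mast cells from nodes with tumour metastasis (mLN), and the comparison of mLN with uLN asks how mast cells of tumour-bearing nodes differ from those of uninvolved ones. The labels give no tumour line, mouse strain, genotype, treatment, age or isolation method for either group. Nor do they say whether replicates came from separate animals, so the p-values reflect no more than the spread among these 6 libraries, and that spread may be technical.

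CC chemokines are small secreted proteins that bind G protein-coupled receptors on leukocytes and direct their movement. Mast cells, tissue-resident cells that carry the IgE receptor and store proteases and histamine in granules, make several of them on activation, above all Ccl2, Ccl3 and Ccl4. The ligands fall into groups by receptor: Ccl2 and Ccl7 act on CCR2 of monocytes, Ccl3, Ccl4 and Ccl5, the macrophage inflammatory proteins and RANTES, on receptors of myeloid and T cells, the rodent chemokines Ccl6 and Ccl9 on CCR1, Ccl17 and Ccl22 on CCR4 of T cells, and Ccl1 on CCR8. Only mRNA was measured here, not secreted protein.

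The libraries held 17643916 to 17799420 counts each. Mast cell markers were abundant in both groups: 11 of 12 listed mast cell markers are in the table, all 11 passed the filter on low counts, and their summed level was 43048 to 44932 CPM (counts scaled to library size) in uLN and 41537 to 44346 CPM in mLN. Single markers shifted within this sum, with 5 lower in mLN (Kit, Fcer1a, Cpa3, Ms4a2 and Hdc), 4 higher (Mcpt4, Cma1, Tpsb2 and Srgn) and 2 not called. Replicate 3 of mLN stood apart from the other mLN libraries. Over genes with at least 20 counts in a pair, the median chi-square per gene between it and the other mLN libraries was 2.48 and 2.58, where counting error alone gives 0.455, against 0.736 between mLN replicates 1 and 2, 0.655 to 0.701 within uLN and at least 13.1 between groups. Values without mLN replicate 3 are therefore given for the ligands of which it was the lowest mLN library.

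Of the 10 ligands, 4 were higher in mLN (Ccl2, Ccl5, Ccl7 and Ccl22), 2 were lower (Ccl4 and Ccl6), 3 were not called (Ccl1, Ccl3 and Ccl9) and Ccl17 had too few reads to be tested. Calls are adjusted p values below 0.05 from the quasi-likelihood test of edgeR, with the Benjamini-Hochberg method applied over 12706 genes. Every adjusted p given for edgeR is of this kind, except where glmTreat or a refit is named. Refits without a library, or with Ccl3 and Ccl4 counted as 1 gene, were adjusted over their own tested genes, 12705 for the latter. The edgeR test called 67.4% of all tested genes, 33.2% as higher and 34.2% as lower in mLN, so a call by itself does not set a ligand apart from other genes. DESeq2's Wald test called the same 6 ligands and 62.9% of genes. The groups did not overlap for 6 of the 9 tested ligands, beside 72.9% of all tested genes. A call together with a change of at least 2-fold is rarer, at 15.9% of tested genes, and 4 ligands had one: Ccl4, Ccl5, Ccl7 and Ccl22. The median log2 fold change of the 9 tested ligands was 0.41, with Ccl22 at its fitted value or at its lower bound, and that of all tested genes was -0.01. In RNA from a cell population, fewer cells that make a transcript and less transcript per cell cannot be told apart, and this holds for every change below.

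**Figure D1:**
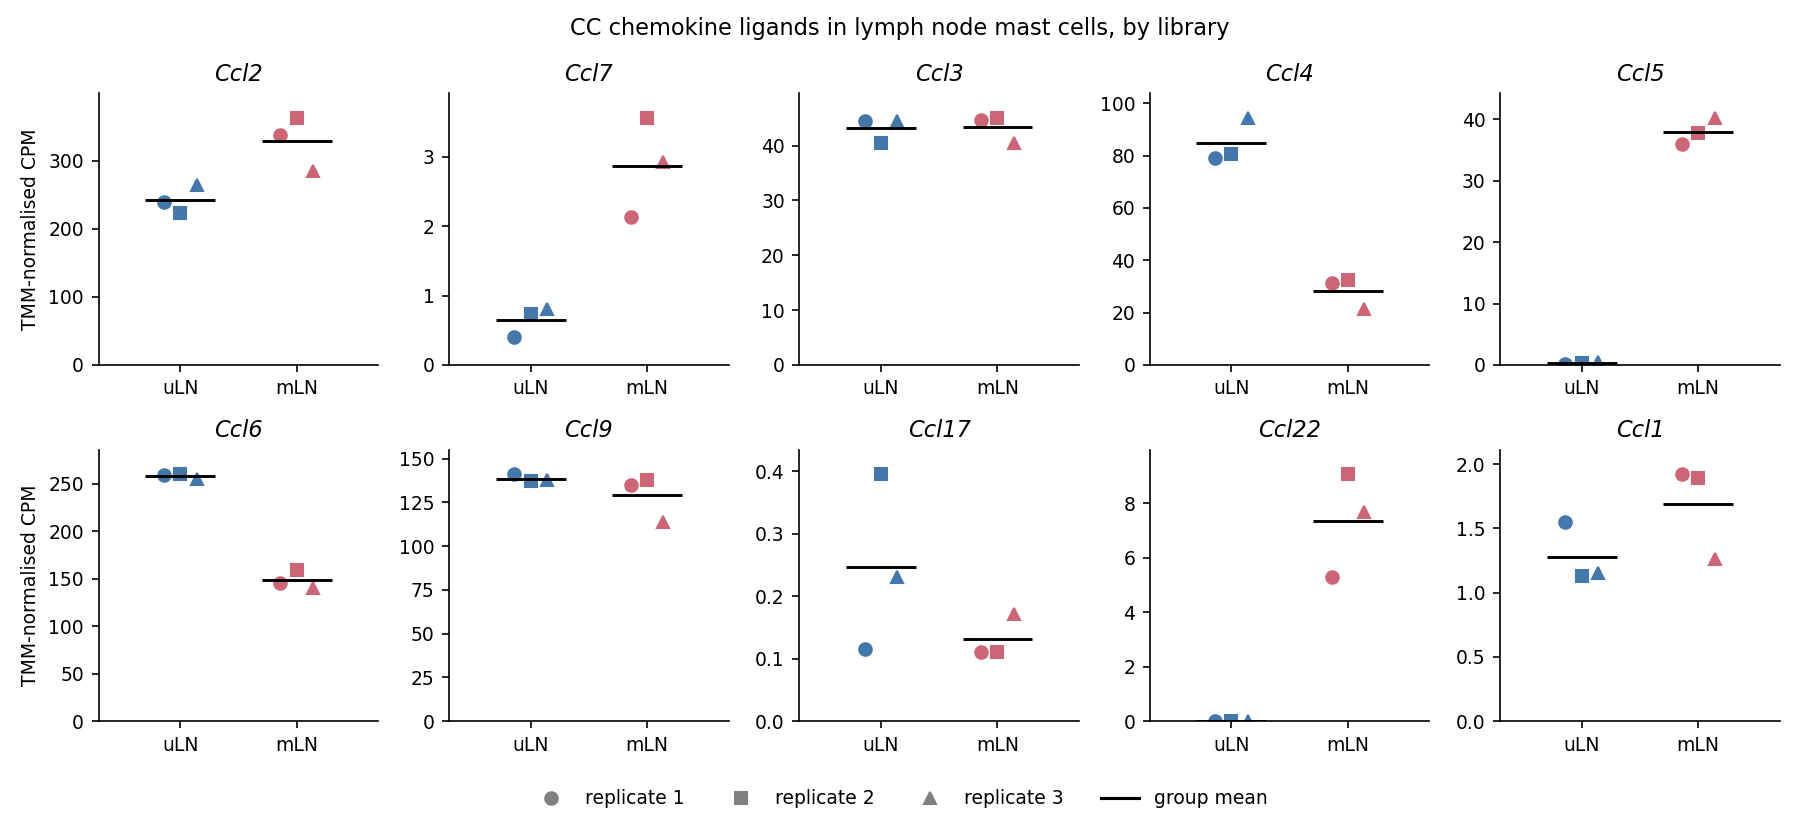
Level of each ligand in TMM-normalised CPM (y axis, a separate scale from 0 in each panel) in the uLN and mLN libraries. Points are libraries, shaped by replicate, and lines are group means of 3 libraries: Ccl5 and Ccl22 lie near or at 0 in uLN, Ccl4 and Ccl6 are lower in every mLN library, and Ccl3 and Ccl9 overlap between groups.

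Ccl2, the main monocyte attractant among these ligands and the most abundant of them per length of transcript in both groups, was moderately higher in mLN. Its counts were 4179, 3946 and 4615 in uLN replicates 1, 2 and 3 and 6176, 6531 and 4989 in mLN replicates 1, 2 and 3. On the CPM scale these were 240, 223 and 265 in uLN and 338, 363 and 286 in mLN. The groups did not overlap, although the lowest mLN library, replicate 3, lay closer to the highest uLN library than to the other mLN libraries. The mean rose from 242 ± 21.4 CPM (SD, n = 3) in uLN to 329 ± 39.1 CPM (SD, n = 3) in mLN, a log2 fold change of 0.44 ± 0.09 (SE) or 1.36-fold. The adjusted p of edgeR was 0.00107, and the log2 fold change was 0.54 without mLN replicate 3. Tested against a minimum change of 1.5-fold with edgeR's glmTreat, a choice made after seeing the data, Ccl2 was no longer called (adjusted p = 1), which left 5 ligands called beside 21.0% of all genes. Ccl2 (gene ID 20296) is on the plus strand of chromosome 11 from 82035577 to 82037452 in GRCm38.

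Ccl7, which shares CCR2 with Ccl2 and also binds CCR1 and CCR3, was far less abundant per length and had a larger fold change, a difference that was not itself tested. Its counts were 7, 13 and 14 in uLN replicates 1, 2 and 3 and 39, 64 and 51 in mLN replicates 1, 2 and 3. Each mLN library exceeded each uLN library, and the lowest library of either group was replicate 1. The mean rose from 0.646 ± 0.215 to 2.87 ± 0.713 CPM (SD, n = 3 each), which is 4.41-fold, with a log2 fold change of 2.14 ± 0.32 (SE) and an edgeR adjusted p of 0.00016. The ratio of summed reads, 154 to 34, was 4.52, with an exact 95% interval of 3.10 to 6.76 that covers counting error only. Ccl7 (gene ID 20306) lies next to Ccl2 on the same strand, from 82045712 to 82047525.

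Among the inflammatory ligands Ccl3, Ccl4 and Ccl5, Ccl5 was far higher in mLN, Ccl4 was lower and Ccl3 was not called. Ccl5, best known as a product of activated T cells, had 4, 5 and 8 counts in uLN replicates 1, 2 and 3 and 657, 679 and 701 in mLN replicates 1, 2 and 3. On the CPM scale it was at 0.229, 0.282 and 0.460 in uLN and at 36.0, 37.8 and 40.2 in mLN. Every uLN library was thus near the limit of detection, since the floor of 3 reads corresponds to 0.164 to 0.172 CPM, and the mLN libraries lay close together. The log2 fold change was 6.85 ± 0.15 (SE), with an edgeR adjusted p of 8.62e-10. Leaving out each library in turn gave folds of 100 to 144. The ratio of summed reads, 2037 to 17, was 120 with an exact 95% interval of 74.5 to 206 for counting error. Per length of transcript, Ccl5 went from the eighth place among the 10 ligands in uLN to the third place in mLN. The latter place depends on how reads were divided between Ccl3 and Ccl4, as described below. Ccl5 (gene ID 20304) is on the minus strand of chromosome 11 from 83525778 to 83530518 in GRCm38, wholly within the long noncoding RNA gene Gm32650 of the annotation, which was not analysed here. Whether reads were counted by strand is not given in the sources used here, so reads of these overlapping genes cannot be told apart.

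Markers of T and NK cells, other sources of Ccl5, were low in both groups. Their list has 11 of 14 genes in the table with a summed level of 4.91 to 5.68 CPM in uLN and 3.29 to 4.50 CPM in mLN. Of the 2 tested, 0 were higher and 1, Cd4, was lower in mLN. Most of this sum was Cd8a (means 2.53 in uLN and 1.91 CPM in mLN, not called) and Cd4 (1.94 and 0.598 CPM). The fall of the sum came from these genes and does not describe the others on the list. For the T cell receptor component Cd3g, uLN had 0 reads and mLN had 1, 0 and 0. The component Cd3d had 7.71, 2.32 and 0.88 counts in uLN and 2.75, 4.27 and 6.48 in mLN, so its groups overlapped. Cd8b1 had 20 reads in uLN and 19 in mLN, and its groups overlapped too. The NK and cytotoxic T cell gene Nkg7 had 0, 0 and 1 reads in uLN and 0, 2 and 1 in mLN. Gzmk and Klrd1 were at 0 in all mLN libraries. The NK cell receptor gene Ncr1 had 1, 0 and 1 reads in uLN and 6, 15 and 2 in mLN, and the T cell kinase gene Lck had 0, 2 and 2 in uLN and 8, 6 and 4 in mLN. Cd3e, Cd2 and Gzma were not analysed here. The part of these cells in the level of Ccl5 was not tested.

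Ccl4, known as MIP-1 beta, was lower in every mLN library. Its estimated counts were 1376.63, 1429.96 and 1642.11 in uLN replicates 1, 2 and 3 and 571.04, 581.72 and 374.69 in mLN replicates 1, 2 and 3. In CPM, it stood at 78.9, 80.7 and 94.3 in uLN and at 31.3, 32.4 and 21.5 in mLN, so the groups were far apart and mLN replicate 3 was lowest. Ccl4 fell 2.98-fold, from 84.7 ± 8.42 to 28.4 ± 5.96 CPM (SD, n = 3 each), a log2 fold change of -1.57 ± 0.13 (SE) with an edgeR adjusted p of 2.22e-06. Without mLN replicate 3 the log2 fold change was -1.41.

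Ccl3, which encodes MIP-1 alpha, a ligand of CCR1, did not pass the test. It had 777.37, 718.04 and 772.89 estimated counts in uLN and 814.96, 810.28 and 706.31 in mLN, in the order of the replicates. The groups overlapped fully, with means of 43.2 ± 2.28 and 43.4 ± 2.49 CPM (SD, n = 3 each). The log2 fold change of Ccl3 was 0.01 ± 0.07 (SE) and its edgeR adjusted p 0.917, and without mLN replicate 3 the log2 fold change was 0.06. The ratio of Ccl3 to Ccl4 counts was 0.565, 0.502 and 0.471 in uLN and 1.43, 1.39 and 1.89 in mLN. Ccl4 thus had more reads than Ccl3 in each uLN library and fewer in each mLN library.

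These neighbours may share reads. Ccl3 (gene ID 20302) is on the minus strand of chromosome 11 from 83647843 to 83649378 in GRCm38. The RefSeq annotation places Ccl4 (gene ID 20303) on the plus strand from 83648624 to 83664683, an overlap of 755 bases, while the GENCODE model of Ccl4 runs from 83662584 to 83664683 and does not reach Ccl3. None of the 6 values of either gene was whole, but their sum was whole in all 6 libraries (within 0.005 counts), so the fractions had been divided between these 2 genes. How many reads were divided is not given in the sources used here, and their separate levels and fold changes are uncertain to that degree. The sum, which does not depend on the split, was 2154, 2148 and 2415 counts in uLN and 1386, 1392 and 1081 in mLN. Every mLN library was below every uLN library. Counted as 1 gene, a choice made after seeing the data, Ccl3 and Ccl4 fell from 128 ± 9.53 to 71.8 ± 8.46 CPM (SD, n = 3 each). This is 1.78-fold, against 2.98-fold for Ccl4 alone, with a log2 fold change of -0.83 ± 0.08 (SE) and an edgeR adjusted p of 1.02e-05.

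**Figure D2:**
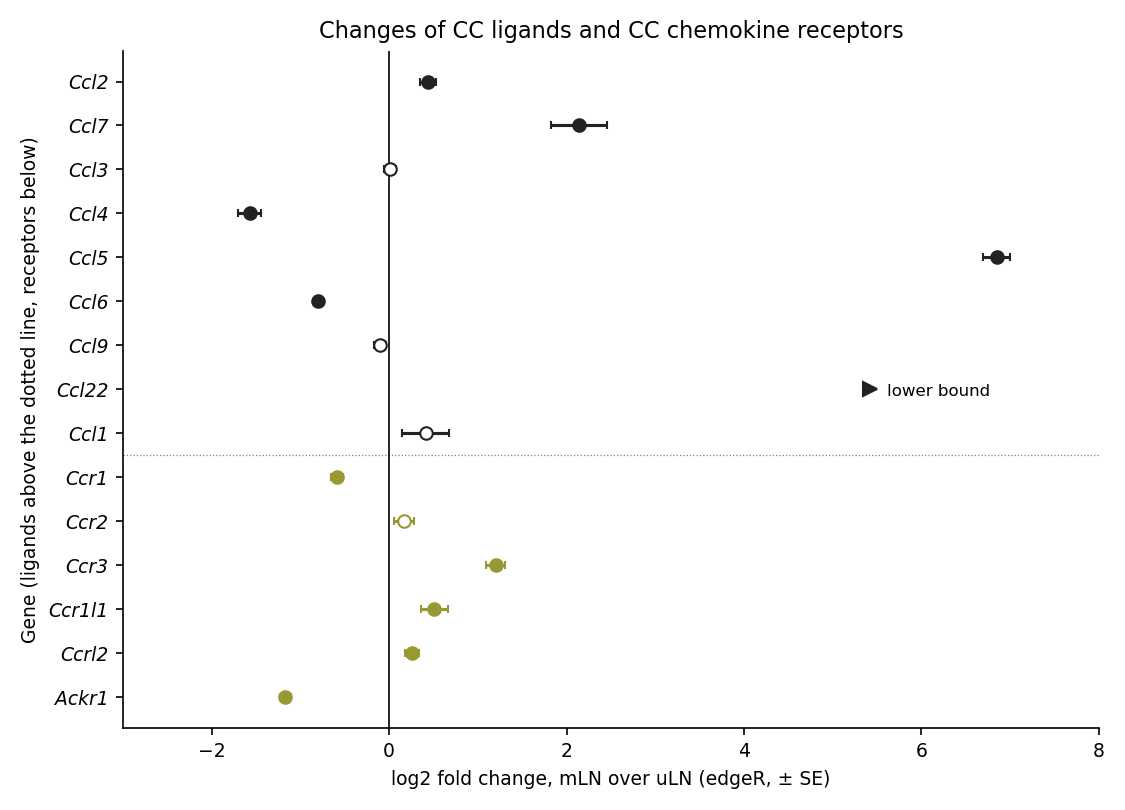
Log2 fold change of mLN over uLN (x axis) with its standard error for the 9 tested ligands and, under the dotted line, 6 tested CC chemokine receptors. Filled points were called by edgeR and open points were not, and the triangle of Ccl22 marks a lower bound: Ccl5 and Ccl22 lie far to the right of the other genes shown.

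Of the rodent CCR1 ligands Ccl6 and Ccl9, neighbouring genes on 1 strand, Ccl6 was lower in mLN and Ccl9 was not called. Ccl6, constitutively made by myeloid cells, had 4511, 4612 and 4447 counts in uLN and 2667, 2866 and 2438 in mLN, in replicate order. The uLN libraries agreed closely, at 258 ± 2.44 CPM (SD, n = 3), and every mLN library was lower, at 148 ± 9.91 CPM (SD, n = 3). Ccl6 fell 1.74-fold, a log2 fold change of -0.80 ± 0.05 (SE) with an edgeR adjusted p of 4.67e-07, and its log2 fold change was -0.75 without mLN replicate 3. Ccl6 (gene ID 20305; chromosome 11, 83587886 to 83593087, minus strand) lies within the long noncoding RNA gene E230016K23Rik, which was not analysed here.

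Ccl9, also called MIP-1 gamma, had 2454.90, 2435.51 and 2396.39 estimated counts in uLN and 2458.24, 2482.67 and 1993.92 in mLN. The groups overlapped: mLN replicates 1 and 2 were at the uLN level and replicate 3 was below it. The means of Ccl9 were 139 ± 1.83 and 129 ± 12.7 CPM (SD, n = 3 each), with a log2 fold change of -0.10 ± 0.07 (SE) and an edgeR adjusted p of 0.195. Without mLN replicate 3 the log2 fold change of Ccl9 was -0.02. The count ratio of Ccl9 to Ccl6 was 0.544, 0.528 and 0.539 in uLN and 0.922, 0.866 and 0.818 in mLN. The ratio was thus higher in each mLN library than in any uLN library, where the smallest exact permutation p of such a design is 0.1. Ccl9 (gene ID 20308; chromosome 11, 83572917 to 83578636, minus strand) shares 2.0% of its 50-base words with other genes and none of its 6 values was whole, so a small part of its reads is of uncertain origin.

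The sequences before the start sites of Ccl9 and Ccl6 are shown because these adjacent genes of like function had different results in the test. RefSeq promoter sequences of GRCm38.p6 were at hand for 6 of the 10 ligands (Ccl1, Ccl3, Ccl6, Ccl9, Ccl17 and Ccl22) and missing for Ccl2, Ccl4, Ccl5 and Ccl7. Each run below is the 250 bases before the start site, 5′ to 3′ on the gene's strand, and capitals mark matches to the motifs searched. Positions of matches are those of their first base, counted back from the start site. The windows are chr11:83578637-83578886 for Ccl9 and chr11:83593088-83593337 for Ccl6, both on the minus strand.
Ccl9: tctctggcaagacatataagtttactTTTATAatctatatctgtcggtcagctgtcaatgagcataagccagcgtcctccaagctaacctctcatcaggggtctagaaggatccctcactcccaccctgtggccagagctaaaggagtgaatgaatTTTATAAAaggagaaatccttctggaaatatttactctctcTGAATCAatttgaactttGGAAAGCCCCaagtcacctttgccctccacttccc
Ccl6: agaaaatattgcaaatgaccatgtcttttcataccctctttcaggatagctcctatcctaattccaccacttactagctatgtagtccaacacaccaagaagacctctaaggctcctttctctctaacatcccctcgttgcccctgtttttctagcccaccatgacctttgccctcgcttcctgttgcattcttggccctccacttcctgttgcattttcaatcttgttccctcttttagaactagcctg
On both strands, 6 motifs were searched: the NF-kB consensus, the STAT6 motif (TTC and GAA with 4 bases between), the AP-1 motif TGANTCA, the interferon-response motif (GAAA repeated after 2 bases), the TATA box TATAAA and the GATA motif AGATAA. Their shares among 27025 RefSeq promoters of this length were 3.75%, 5.86%, 6.87%, 3.04%, 13.0% and 10.3% in that order. The Ccl9 window held an NF-kB match at -35 on the opposite strand, an AP-1 match at -53 and 3 TATA box matches at -92, -94 and -224, of which the first 2 overlap on opposite strands. The Ccl6 window held 0 matches, as did those of Ccl1, Ccl3 and Ccl22. The longest stretch that the Ccl9 and Ccl6 windows share is 13 bases, GCCCTCCACTTCC, at -14 and -55. Such a match describes the letters and is not evidence of binding.

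The CCR4 ligands Ccl22 and Ccl17, which share a short stretch of chromosome 8 and attract regulatory and type 2 helper T cells, had unlike read counts in mLN. No Ccl22 read was found in any of the 3 uLN libraries (0, 0 and 0), whereas mLN replicates 1, 2 and 3 held 97, 163 and 134. Its mLN level was 5.31, 9.06 and 7.69 CPM, a mean of 7.36 ± 1.90 CPM (SD, n = 3). Set against a uLN floor of 3 reads in each library, Ccl22 was at least 43.0-fold higher in mLN, with an edgeR adjusted p of 1.7e-06. Per length of transcript its mLN mean was 3.32 RPKM (CPM per kilobase of exon), near that of Ccl7 and far below that of Ccl5. Ccl22 (gene ID 20299) is on the plus strand of chromosome 8 from 94745684 to 94751388 in GRCm38.

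Ccl17 stayed at the edge of detection in both groups. It had 2, 7 and 4 reads in uLN and 2, 2 and 3 in mLN, in replicate order, and the expression filter removed it. The groups overlapped, and the ratio of summed reads, 7 to 13, was 0.537 with an exact 95% interval of 0.182 to 1.45. Within counting error alone, a rise above 1.45-fold is outside this interval, while a fall or a smaller rise could not be resolved at this depth. Ccl17 (gene ID 20295) lies from 94809380 to 94812038 on the same strand as Ccl22.

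The windows before Ccl22 and Ccl17 are shown because of this contrast within 1 receptor group. They are chr8:94745434-94745683 for Ccl22 and chr8:94810203-94810452 for Ccl17, both on the plus strand, with the Ccl17 window ending at a transcript start inside the RefSeq span of the gene. The Ccl22 window ends at the RefSeq start, but the GENCODE model of Ccl22 starts at 94745590, inside that window.
Ccl22: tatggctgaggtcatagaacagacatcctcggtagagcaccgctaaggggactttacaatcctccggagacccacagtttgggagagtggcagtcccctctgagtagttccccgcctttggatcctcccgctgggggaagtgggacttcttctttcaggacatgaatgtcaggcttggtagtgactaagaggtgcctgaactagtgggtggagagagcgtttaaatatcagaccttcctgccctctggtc
Ccl17: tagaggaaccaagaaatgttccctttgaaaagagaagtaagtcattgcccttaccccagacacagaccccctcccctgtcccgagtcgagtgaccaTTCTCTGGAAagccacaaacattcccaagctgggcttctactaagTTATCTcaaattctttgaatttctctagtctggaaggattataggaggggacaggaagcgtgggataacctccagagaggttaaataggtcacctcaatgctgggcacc
Capitals again mark matches to the motifs named above. The Ccl17 window held a STAT6 match at -154 and a GATA match at -109 on the opposite strand. The gene with the matches was thus the one near 0, and no match in the Ccl22 window says only that these letters are not there.

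Ccl22 is known best from dendritic cells and macrophages, so their markers are given beside it. The dendritic cell list had a summed level of 11.0 to 13.1 CPM in uLN and 23.3 to 25.4 CPM in mLN; 13 of 13 genes are in the table, 6 were tested and 3 were higher (Itgax, Cd74 and H2-Aa), of which Cd74 and H2-Aa serve antigen presentation by MHC class II. Flt3 and Fscn1, also on that list, were low and their groups overlapped. Zbtb46 and Xcr1 were tested and not called, and their groups overlapped too. H2-Eb1 was too low for the test, with 5 reads in uLN and 31 in mLN and groups that did not overlap. Flt3 had 2.76, 3.63 and 6.29 counts in uLN and 2.35, 6.09 and 4.45 in mLN, and Fscn1 had 10, 23 and 11 in uLN and 17, 15 and 17 in mLN. Ccr7, which marks migrating dendritic cells, had 2, 0 and 0 reads in uLN and 7, 9 and 5 in mLN, and Clec9a, of cross-presenting dendritic cells, had 1, 1 and 1 in uLN and 4, 6 and 4 in mLN, so these separated the groups at very low counts. The macrophage and monocyte list summed to 170 to 224 CPM in uLN and 247 to 273 CPM in mLN, with 3 of 13 tested genes higher (Cd68, Adgre1 and Marco) and 8 lower (Cd5l, Cd163, Mertk, Csf1r, Lyz2, Mrc1, C1qb and C1qc). The median log2 fold change of the tested genes of that list was -0.89, so its summed level was higher in mLN while 8 of its genes fell. The part of these cells in the levels of Ccl22, Ccl2, Ccl7 and Ccl6 was not tested.

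Ccl1, the ligand of CCR8, did not pass the test. It had 27, 20 and 20 counts in uLN and 35, 34 and 22 in mLN, in replicate order, and mLN replicate 3 lay within the uLN range. The means were 1.28 ± 0.236 and 1.69 ± 0.370 CPM (SD, n = 3 each). The log2 fold change of Ccl1 was 0.41 ± 0.27 (SE), with an edgeR adjusted p of 0.214. Without mLN replicate 3 these were 0.58 and 0.0892. Ccl1 (gene ID 20290) is on the minus strand of chromosome 11 from 82176666 to 82179812.

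The summed level of the 10 ligands did not separate the groups. It was 765, 744 and 800 CPM in uLN and 740, 790 and 655 CPM in mLN, and the groups overlapped. The means were 770 ± 28.3 and 728 ± 68.3 CPM (SD, n = 3 each), or 0.0762% and 0.0736% of all counts. What differed was the make-up. Ccl2 went from 31.5% ± 1.66 to 45.1% ± 1.22 of the ligands' counts (SD, n = 3 each), and Ccl6 from 33.6% ± 1.56 to 20.4% ± 0.874. The share of Ccl4 went from 11.0% ± 0.764 to 3.86% ± 0.509 and that of Ccl5 from 0.0418% ± 0.0142 to 5.26% ± 0.763. Ccl22 made up 1.01% ± 0.255 in mLN. Ccl9 and Ccl3 kept near the same shares, 18.0% and 17.7% for Ccl9 and 5.61% and 5.97% for Ccl3. Shares sum to a fixed total, so each depends on the others. Those of Ccl3 and Ccl4 also depend on how the reads of these neighbours were divided.

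**Figure D3:**
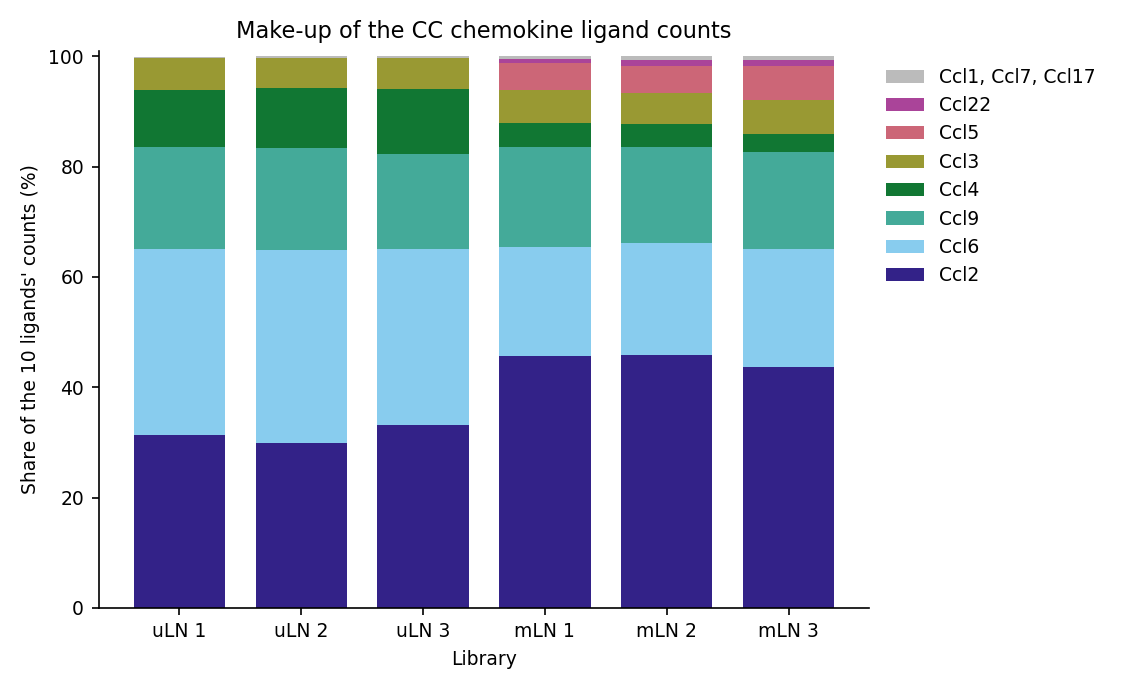
Share of the 10 ligands' summed counts that each ligand took (y axis, percent) in each library (x axis). Ccl2 and Ccl6 were of like size in uLN, Ccl2 took the largest share in each mLN library, and Ccl5 and Ccl22 are visible only in mLN.

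Levels of different ligands can be compared only per length of transcript. In RPKM, the order in uLN was Ccl2 (mean 298), Ccl6 (179), Ccl4 (128), Ccl3 (56.3), Ccl9 (46.1) and Ccl1 (2.08), each with a range over libraries that did not overlap the next. Below these came Ccl7, Ccl5 and Ccl17 at 0.807, 0.608 and 0.480, whose neighbouring ranges overlapped, and Ccl22 at 0. In mLN the order was Ccl2 (405), Ccl6 (103), Ccl5 (71.4) and Ccl3 (56.7), followed by Ccl4 (43.0) and Ccl9 (42.9), which did not differ beyond their spread. Ccl7, Ccl22 and Ccl1 followed at 3.59, 3.32 and 2.76 with overlapping ranges, and Ccl17 was last at 0.255. Ccl2 and Ccl6 thus led in both groups, and Ccl5 had passed Ccl3, Ccl4 and Ccl9 in mLN. Places relative to Ccl3 and Ccl4 depend on how the reads of these neighbours were divided, and are uncertain to that degree.

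Within mLN, replicate 3 was the lowest library for 6 of the 10 ligands (Ccl1, Ccl2, Ccl3, Ccl4, Ccl6 and Ccl9) and replicate 1 for the other 4 (Ccl5, Ccl7, Ccl17, where it was level with replicate 2 in reads, and Ccl22). Without mLN replicate 3 the calls stayed at 4 higher and 2 lower.

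The ligands lie in 3 genomic groups. The first covers 144 kb of chromosome 11 with Ccl2, Ccl7 and Ccl1, and holds the eosinophil attractant Ccl11 with 3 reads in uLN and 2 in mLN. The second covers 139 kb of chromosome 11 with Ccl5, Ccl9, Ccl6, Ccl3 and Ccl4 in that order. The third covers 66.4 kb of chromosome 8 with Ccl22 and Ccl17. Within the second group 1 ligand was higher, 2 were lower and 2 were not called, so these neighbours did not share a direction. Between Ccl22 and Ccl17 lies Cx3cl1, which encodes fractalkine, with 36, 61 and 14 reads in uLN and 103, 95 and 96 in mLN (log2 fold change 1.38 ± 0.36, SE, adjusted p = 0.00564, edgeR). On the Ccl5 side of the second group, Heatr9 went from 0 reads in uLN to 13, 11 and 13 in mLN (at least 4.03-fold higher, against the same floor), and Mmp28, a matrix metalloproteinase, was higher by 2.14 ± 0.23 (log2, SE). Taf15, a nearby gene of RNA metabolism, was higher by only 0.25 ± 0.06 (log2, SE). On the far side of Ccl4, Wfdc17 had 10, 13 and 12 reads in uLN and 36, 34 and 46 in mLN.

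**Figure D4:**
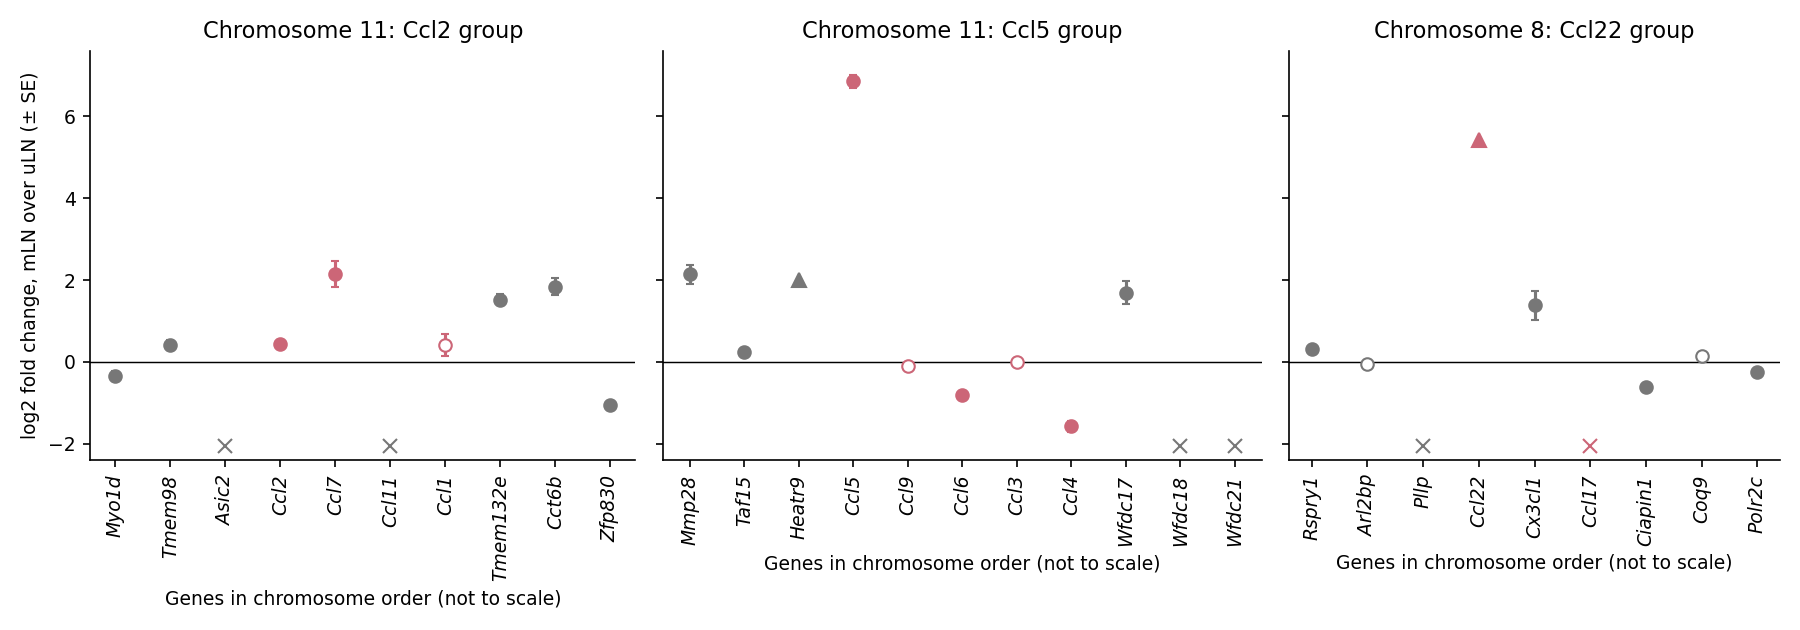
Log2 fold change of mLN over uLN with its standard error (y axis) for the ligands, in red, and the genes of the table between and beside them, in grey, in chromosome order. Filled points were called by edgeR, open points were not, triangles are lower bounds, and crosses at the bottom edge are genes not tested, with no value: within the Ccl5 group, Ccl5 is the only ligand called higher, beside 2 called lower and 2 not called.

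Transcripts of several receptors of these ligands were found in the same libraries. Ccr1, the receptor of Ccl3, Ccl5, Ccl6 and Ccl9, fell from 74.7 ± 4.02 to 49.7 ± 4.23 CPM (SD, n = 3 each; log2 -0.59, adjusted p = 3.15e-05, edgeR). Ccr3, which binds Ccl5 and Ccl7, rose from 15.0 ± 1.14 to 34.5 ± 5.03 CPM (log2 1.20, adjusted p = 5.21e-06, edgeR). Ccr2, the receptor of Ccl2 and Ccl7, was not called, at 21.1 ± 1.93 and 23.8 ± 3.54 CPM (adjusted p = 0.194, edgeR). The CCR4 and CCR8 genes were near 0: Ccr4 had 0.81 to 9.05 counts per library and Ccr8 a total of 1 read in uLN and 3 in mLN. Ackr1, a decoy that binds Ccl2, Ccl5 and Ccl7 without signalling, fell from 107 ± 1.36 to 47.4 ± 4.10 CPM (log2 -1.17, adjusted p = 1.17e-07, edgeR), while the decoy Ackr2 had 1 read in each group. Also called higher were Ccr1l1 (log2 0.51, adjusted p = 0.0131, edgeR), whose groups overlapped, and Ccrl2 (log2 0.26, adjusted p = 0.0119, edgeR).

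Of 12 other CC ligands listed, 5 are in the table, all at low levels; the rest were not analysed here. Of these, 3 were tested and 1 was called: Ccl27a, a skin T cell attractant, rose from 0.912 ± 0.197 to 1.81 ± 0.318 CPM (SD, n = 3 each; adjusted p = 0.00963, edgeR), which is uncertain because near-identical copies of this gene exist. Ccl25 was at 1.33 ± 0.296 and 0.704 ± 0.317 CPM and was not called (adjusted p = 0.0511, edgeR). Of the CXC, XC and CX3C ligands, 14 of 17 are in the table and 4 were tested, with 3 higher and 0 lower. Besides Cx3cl1 these were Cxcl16, a membrane-bound CXCR6 ligand, at 2.68 ± 0.126 and 6.17 ± 0.972 CPM, and Pf4, a platelet chemokine, at 0.266 ± 0.116 and 2.50 ± 0.423 CPM. The neutrophil attractants Cxcl2 and Cxcl3 were too low for the test, Cxcl2 with 1 read in uLN and 45 in mLN and Cxcl3 with 0 and 33.

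Genes that act on chemokine transcription and mRNA were called in both directions, at shares to be read against the 67.4% of all tested genes that were called. Of 32 tested factors, 12 were higher, 12 lower and 8 not called. Their median log2 fold change was -0.09. The lowest adjusted p values were those of Bcl3 and Nfkbia, an NF-kB cofactor and inhibitor, with log2 fold changes of 3.03 and 1.58 (adjusted p = 4.26e-08 and 7.21e-08, edgeR), and of Nfatc2 and Jun, which act downstream of calcium and MAP kinases, with 1.02 and 1.21 (adjusted p = 1.11e-07 and 1.26e-07, edgeR). Factors of the same pathways were among those that fell: Fos (log2 -1.92), Junb (log2 -0.92), Egr1 (log2 -1.84), Egr2 (log2 -3.08) and Nfkb1 (log2 -0.51). Of 15 tested receptors and adaptors upstream of chemokine induction, 4 were higher and 7 lower. The stem cell factor receptor Kit (log2 -1.31), the interleukin 4 receptor Il4ra (log2 -0.50) and the IgE receptor subunit Fcer1a (log2 -0.59) fell, and the shared cytokine receptor subunit Il2rg rose (log2 0.61). Of 12 tested genes of chemokine mRNA decay and protein cleavage, 7 were higher and 4 lower. Among them Zfp36, which binds AU-rich sequences and speeds mRNA decay, fell (log2 -0.97). Its relative Zfp36l2 fell too (log2 -0.46), while its relative Zfp36l1 rose (log2 0.31). The sheddase Adam17 fell (log2 -0.24) and the RNase Zc3h12a rose (log2 0.77).

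The genes most like Ccl5 and Ccl6 over the 6 libraries were found by Euclidean distance on log2(CPM + 1). For Ccl5 they were Ces2c, a carboxylesterase (distance 1.38), H2-Ab1, an MHC class II chain (1.60), and Cyp26a1, which breaks down retinoic acid (1.65). All were low in uLN and high in mLN, as Ccl5 was, which follows from the way they were chosen. For Ccl6 they were Fes, a tyrosine kinase (0.13), and Flii, an actin regulator (0.14).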

How the data were processed

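Per the labels' protocols, a Qiagen RNeasy kit gave the RNA of the 6 mast cell samples and a DNBSEQ kit of BGI the mRNA libraries. Reads were handled with cutadapt, FastQC and TopHat on the mouse build GRCm38, per the submitters' processing notes. Not given in the sources used here are the counting tool, its annotation and its use of strand. As deposited, the authors' values are estimated counts per gene without scaling, of which 32.2% to 32.8% per library were not whole. They were rounded for the tests. 1 row without a gene was left out, 24 symbols that had become dates were restored by gene ID, and 17764 of 17890 gene IDs matched RefSeq GRCm38.p6, the source of coordinates.

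Groups were compared with edgeR 4.0.16 in R 4.3.3 (TMM scaling, default expression filter, quasi-likelihood test, Benjamini-Hochberg adjustment, called under 0.05). The filter kept 12706 genes and removed 5184, among them Ccl17. CPM are TMM-normalised, and RPKM divide these by the exon length of GENCODE M21 basic transcripts. The floor was 3 reads per library, 0.164 to 0.172 CPM, and intervals and floors cover counting error only. On simulated data for mLN against uLN with 12706 genes, there were 161 calls, of which 7 were false. The recovered share there was 40% for changes of 1.25-fold, 82% for 1.5-fold, 90% for 2-fold and 96% for 4-fold. The measured libraries gave calls for 67.4% of tested genes, and recovery at that share of calls was not tested. A permutation test of 3 against 3 libraries cannot go below p = 0.1 and was not used.

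The members and the gene lists were chosen with earlier results of these data known. The text names all members, of each other gene list up to 4 called genes in order of adjusted p (the most abundant where fewer than 2 were called), receptors of members, the genes between members and 3 beside each genomic group (some only in the plot of neighbours), and for Ccl5 and Ccl6 the 3 most alike genes; some genes that this takes are not reported here. Ncr1, Lck, Clec9a, Cd3g, Cd3d, Cd8b1, Nkg7, Gzmk, Klrd1, Flt3, Fscn1, Ccr7, Cxcl2, Cxcl3, Zfp36l1, the other cell type markers beyond the called ones and the 5 transcription factors named as lower were added after their values were seen. Alternatives were other scalings, DESeq2 1.42.0, no filter, limma 3.58.1, a replicate block, leaving out each library and, chosen after seeing the data, a test against a minimum fold and Ccl3 and Ccl4 counted as 1 gene.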

Additional observations from a re-analysis of the deposited data

How the results depend on the processing

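The 6 ligand calls (4 higher, 2 lower) were kept under both other scalings, DESeq2's Wald test, no expression filter, limma-voom on unrounded values and the omission of each library. Without 1 library at a time, the counts stayed at 4 higher and 2 lower ligands, and all genes gave 3843 to 4403 higher and 4017 to 4492 lower. Log2 fold changes then ranged from 0.36 to 0.54 for Ccl2, 1.89 to 2.32 for Ccl7, 6.65 to 7.17 for Ccl5, -1.68 to -1.41 for Ccl4 and -0.85 to -0.75 for Ccl6. Under edgeR's glmTreat against a minimum of 1.5-fold, chosen after seeing the data, 1496 genes were higher and 1169 lower (21.0% of tested genes) because the threshold is stricter, with 3 higher and 2 lower ligands. The lost call was Ccl2 (log2 fold change 0.44, adjusted p = 1). Counting Ccl3 and Ccl4 as 1 gene, also chosen after seeing the data, gave a log2 fold change of -0.83.

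Same-numbered uLN and mLN libraries had correlations of deviations from the group mean of 0.02, -0.15 and -0.01. Those with different numbers had -0.16 to 0.19, so no pairing by replicate number was seen. The check could not exclude a pairing, because the spread within groups was close to counting error, apart from mLN replicate 3. With the replicate number as a block, 4122 genes were higher and 4263 lower, and 4 and 2 ligands. Depth limits Ccl17, with 13 and 7 reads, and the uLN levels of Ccl5, Ccl7 and Ccl22.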

Other observations

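Markers of further cell types are given by library, and their part in the levels of the ligands was not tested. Epithelial markers summed to 17.5, 17.5 and 8.16 CPM in uLN and to 159, 16.4 and 35.3 CPM in mLN, with mLN replicate 1 the highest library, and 3 of 4 tested genes were higher. Fibroblast genes had the same highest library: Dcn was at 1.55, 1.30 and 0.517 CPM in uLN and at 32.4, 1.11 and 3.50 CPM in mLN, and Col1a1 and Col1a2 reached 41.7 and 29.4 CPM in mLN replicate 1. Of the fibroblast and endothelial list 3 of 4 tested genes were higher (Dcn, Col1a1 and Col1a2, with groups that overlapped for Dcn and Col1a2). Its sum, 594 to 615 CPM in uLN and 632 to 699 CPM in mLN, was mostly the endothelial and platelet gene Pecam1 (593 ± 11.7 and 614 ± 24.3 CPM, SD, n = 3 each). The other endothelial genes listed were near 0: Cdh5, Kdr and Lyve1 had 1, 13 and 0 reads in uLN and 10, 8 and 4 in mLN.

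Neutrophil markers summed to 21.8 to 26.4 CPM in uLN and 17.7 to 20.1 CPM in mLN. Most of this sum was Cxcr2 (means 12.9 and 10.2 CPM), Csf3r (6.64 and 6.57 CPM, not called) and Mmp8 (3.63 and 1.68 CPM). Cxcr2 and Mmp8 were called lower. Ngp had 0, 0 and 1 reads in uLN and 4, 26 and 3 in mLN, and Elane had 0 reads in uLN and 5 in mLN. S100a8, S100a9, Ly6g and Camp had at most 5 reads in either group. Basophil and eosinophil markers summed to 312 to 326 CPM in uLN and 475 to 507 CPM in mLN. Almost all of the basophil and eosinophil sum was Cd200r3 (means 318 in uLN and 486 CPM in mLN). Siglecf rose from 0.914 to 4.19 CPM, and Mcpt8 was not called, at 1.07 and 1.12 CPM. Epx and Prg2 each had 0 reads in uLN and 1 in mLN. Platelet markers summed to 1957 to 2026 and 1061 to 1251 CPM, a sum made up mostly of Itga2b, which was lower in mLN (log2 fold change -0.84); of 4 tested genes of that list, Itga2b and Gp1ba were lower and Pf4 and Gp9 higher. B cell markers stayed between 1.15 and 2.34 CPM in all libraries.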
